A study of Mus musculus with 12 samples.

Results

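The early mevalonate pathway enzymes described here are 8 genes, Acat2, Hmgcs1, Mvk, Pmvk, Mvd, Idi1, Fdps and Ggps1, taken by symbol from the deposited table of 12339 genes. All 8 were in the table and all 8 entered the test. They were followed in peritoneal macrophages elicited with thioglycolate from WT (wild-type) and meKO mice that ate either chow or a Western diet rich in fat (HFD). Protein kinase C epsilon of myeloid cells, encoded by Prkce, is named in the title of the series. The labels do not expand meKO and do not name the Cre line or promoter. Mice of both genotypes and both diets had all received the same viral vector by injection at 8 weeks of age, controls included, and macrophages were collected by lavage 4 weeks later. Each of the 4 combinations of genotype and diet had 3 libraries. The labels describe 8 mice per genotype and do not say in so many words that each library is a separate mouse, so the p-values measure the spread between libraries.

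The mevalonate pathway turns acetyl-CoA into isoprenoid building blocks. Acat2 is the cytosolic thiolase that joins acetyl-CoA units, and Hmgcs1 adds a further acetyl group to give HMG-CoA. HMG-CoA is reduced to mevalonate by an enzyme that is not among the 8. Mvk and Pmvk phosphorylate mevalonate in turn, and Mvd decarboxylates the product to isopentenyl diphosphate, which Idi1 converts to its isomer. Fdps builds farnesyl diphosphate, the branch point towards squalene, cholesterol, dolichol and protein farnesylation, and Ggps1 adds another unit to give geranylgeranyl diphosphate, which anchors Rab and other small GTPases in membranes. In many cells the genes of this pathway are driven by the transcription factor SREBP-2, which is held inactive when membrane cholesterol is high.

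Total counts per library ran from 25844958 to 37282772. Prkce, the gene named in the title, had 2.01 to 4.44 CPM (a gene's count as a share of the library's total after TMM scaling, in parts per 1000000) in the 6 WT libraries and 0.950 to 1.78 CPM in the 6 meKO libraries. Of 7 macrophage markers all 7 were listed. Adgre1 lay between 513 and 697 CPM, Cd68 between 2538 and 3658 CPM and Csf1r between 473 and 844 CPM. Itgam ran from 522 to 1166 CPM, Mertk from 56.7 to 122 CPM and Fcgr1 from 101 to 220 CPM, so the markers were not even across libraries. Lyz2 was at 69.3 CPM in meKO chow replicate 2 and between 16293 and 21309 CPM in the other meKO libraries. In the WT libraries it lay between 30482 and 53835 CPM. Some libraries also deviated with exon length: the rank correlation (Spearman, taken over genes, not over replicates) of exon length with a gene's departure from its 12-library mean was 0.62 and 0.67 in WT chow replicates 1 and 2. In the other 10 libraries it lay between -0.45 and 0.13.

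The starts of these genes are shown first, as a description of their sequence. The sterol regulatory element that SREBP-2 binds often sits close to the start of its targets, and a part of SREBP-2 in these data was not tested. Promoters from RefSeq (GRCm38.p6) were matched for 7 of the 8 genes, at 8 starts; Fdps was not matched. Both strands were searched, from 250 bases before to 50 bases after each start, for TCACNCCAC (the core of a sterol element), CCAAT (the NF-Y box) and GGGCGG (the GC box, bound by Sp1). The stretches below end at the base before the start (that of Mvk a few bases earlier, clear of the annotated gene) and read 5′ to 3′ on the gene's strand, with matches on either strand in capitals. They are given for Hmgcs1, the gene with all 3 motifs, for Mvk and Idi1, which fell on HFD in WT, and for Mvd and Pmvk, which did not pass the test.
Hmgcs1, chr13:119690101-119690350, plus strand: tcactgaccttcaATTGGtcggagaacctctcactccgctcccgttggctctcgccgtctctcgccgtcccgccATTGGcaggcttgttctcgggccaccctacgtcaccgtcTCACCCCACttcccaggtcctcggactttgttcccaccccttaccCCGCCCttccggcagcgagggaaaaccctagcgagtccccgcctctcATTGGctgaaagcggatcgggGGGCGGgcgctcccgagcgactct
Mvk, chr5:114444074-114444263, plus strand: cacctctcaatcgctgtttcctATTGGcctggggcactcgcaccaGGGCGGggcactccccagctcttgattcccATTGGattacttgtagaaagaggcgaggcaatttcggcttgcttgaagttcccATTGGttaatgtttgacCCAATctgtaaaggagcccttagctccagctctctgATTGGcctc
Idi1, chr13:8885486-8885605, plus strand: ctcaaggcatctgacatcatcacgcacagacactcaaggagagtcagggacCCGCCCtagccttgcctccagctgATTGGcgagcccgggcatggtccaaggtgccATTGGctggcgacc
Mvd, chr8:122443423-122443572, minus strand: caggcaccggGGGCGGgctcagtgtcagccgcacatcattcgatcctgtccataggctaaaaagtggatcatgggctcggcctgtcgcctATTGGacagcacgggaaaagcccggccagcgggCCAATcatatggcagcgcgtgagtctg
Pmvk, chr3:89454391-89454540, plus strand: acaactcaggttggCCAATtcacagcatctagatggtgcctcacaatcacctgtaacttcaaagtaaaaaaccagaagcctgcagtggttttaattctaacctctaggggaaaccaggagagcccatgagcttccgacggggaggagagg

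The sterol element core was found in Hmgcs1 alone of the matched members, on the gene's strand between bases -137 and -129, where -1 is the base before the start. Of all 32851 promoters in the table, 1.24% held it. Only these exact letters within this window were searched, so a missing match does not show that a sterol element is absent. A CCAAT box was found in 6 of the 7 matched genes, at 6 of their 8 starts, against 37.4% of all promoters. Mvk had 5, Hmgcs1 4, Ggps1 3, Idi1 and Mvd 2 each, and Pmvk 1, at the first of its 2 starts. The GC box was found in 5 of the 7 genes (Hmgcs1, Mvk, Idi1, Mvd and Acat2), at 5 of the 8 starts, against 35.7% of all promoters. In the printed stretches 0 bases were shared by 2 matches. A match of letters describes the sequence and is not evidence of binding, and the data hold no measure of binding at these starts.

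The 8 genes lie on 5 chromosomes. Fdps (chromosome 3, 89093588 to 89101967) and Pmvk (89454541 to 89469014) lie on the same chromosome, as do Idi1 (chromosome 13, 8885606 to 8892396), Ggps1 (14049790 to 14063566) and Hmgcs1 (119690351 to 119708260). Acat2 lies on chromosome 17 (12943042 to 12960725), Mvk on chromosome 5 (114444264 to 114460591), with the cobalamin enzyme gene Mmab just before it, and Mvd on chromosome 8 (122433596 to 122443422). Reads of several members could be shared with other genes, and how the authors counted such reads is not given in the sources used here. A stretch of 1477 bases of Acat2 transcript was 97.7% identical to Acat3, a neighbouring thiolase gene that is also in the table. Fdps, Idi1 and Ggps1 have processed pseudogenes that are at least 90% identical over 300 bases or more: 6 for Fdps, 4 for Idi1 and 1 for Ggps1. Fdps also shares 929 identical bases with the gene model Gm43738. Of these models and pseudogenes, 0 were among the listed genes. The levels of Acat2, Fdps, Idi1 and Ggps1 are therefore uncertain. Acat2 also matches Tcp1, on the opposite strand, at 98.7% identity over 445 bases. Other members overlap genes on the opposite strand or of other kinds: Hmgcs1 shares 462 bases with the antisense gene Gm48342, Idi1 323 bases with Gm48574, and the lncRNA Gm51557 covers 3213 bases of the Mvd locus. Without the strand setting of the counting, reads of such pairs cannot be told apart.

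Compared per kilobase of exon, Hmgcs1 stood far above the other members in every group. In WT chow it averaged 18.0 ± 1.87 CPM per kb (SD, n = 3), and the next level was that of Mvd at 5.77 ± 0.790. Mvk (5.07 ± 0.649), Pmvk (4.99 ± 0.659), Idi1 (4.49 ± 1.63), Fdps (3.79 ± 0.967), Ggps1 (3.50 ± 0.594) and Acat2 (3.13 ± 0.688 CPM per kb) followed, and each neighbouring pair after Hmgcs1 differed by less than the larger SD of the pair. On HFD in WT the order changed: Hmgcs1 (11.8 ± 0.598 CPM per kb) was followed by Pmvk (5.80 ± 0.344), Mvd (4.94 ± 0.770), Mvk (3.76 ± 0.227), Ggps1 (3.24 ± 0.196), Acat2 (2.89 ± 0.339), Idi1 (2.14 ± 0.237) and Fdps (1.91 ± 0.186). Idi1 and Fdps thus stood at the end of the order on HFD, and of the neighbours only that pair differed by less than its larger SD. In meKO chow the levels per kb were 16.3 ± 2.33 for Hmgcs1, 6.21 ± 0.524 for Mvd, 5.83 ± 0.749 for Pmvk, 4.74 ± 0.283 for Mvk, 3.92 ± 1.29 for Idi1, 3.44 ± 0.424 for Acat2, 3.24 ± 0.278 for Ggps1 and 3.14 ± 0.567 for Fdps. In meKO HFD they were 13.3 ± 1.56 for Hmgcs1, 6.90 ± 1.58 for Pmvk, 5.67 ± 1.32 for Mvd, 3.69 ± 0.469 for Mvk, 2.98 ± 0.560 for Ggps1, 2.73 ± 0.0424 for Acat2, 2.39 ± 0.239 for Fdps and 1.87 ± 0.206 for Idi1. Idi1 was thus the lowest of the 8 in that group. Counts behind these levels ran from 77 for Fdps in 1 WT HFD library to 2456 for Hmgcs1 in 1 WT chow library.

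**Figure D1:**
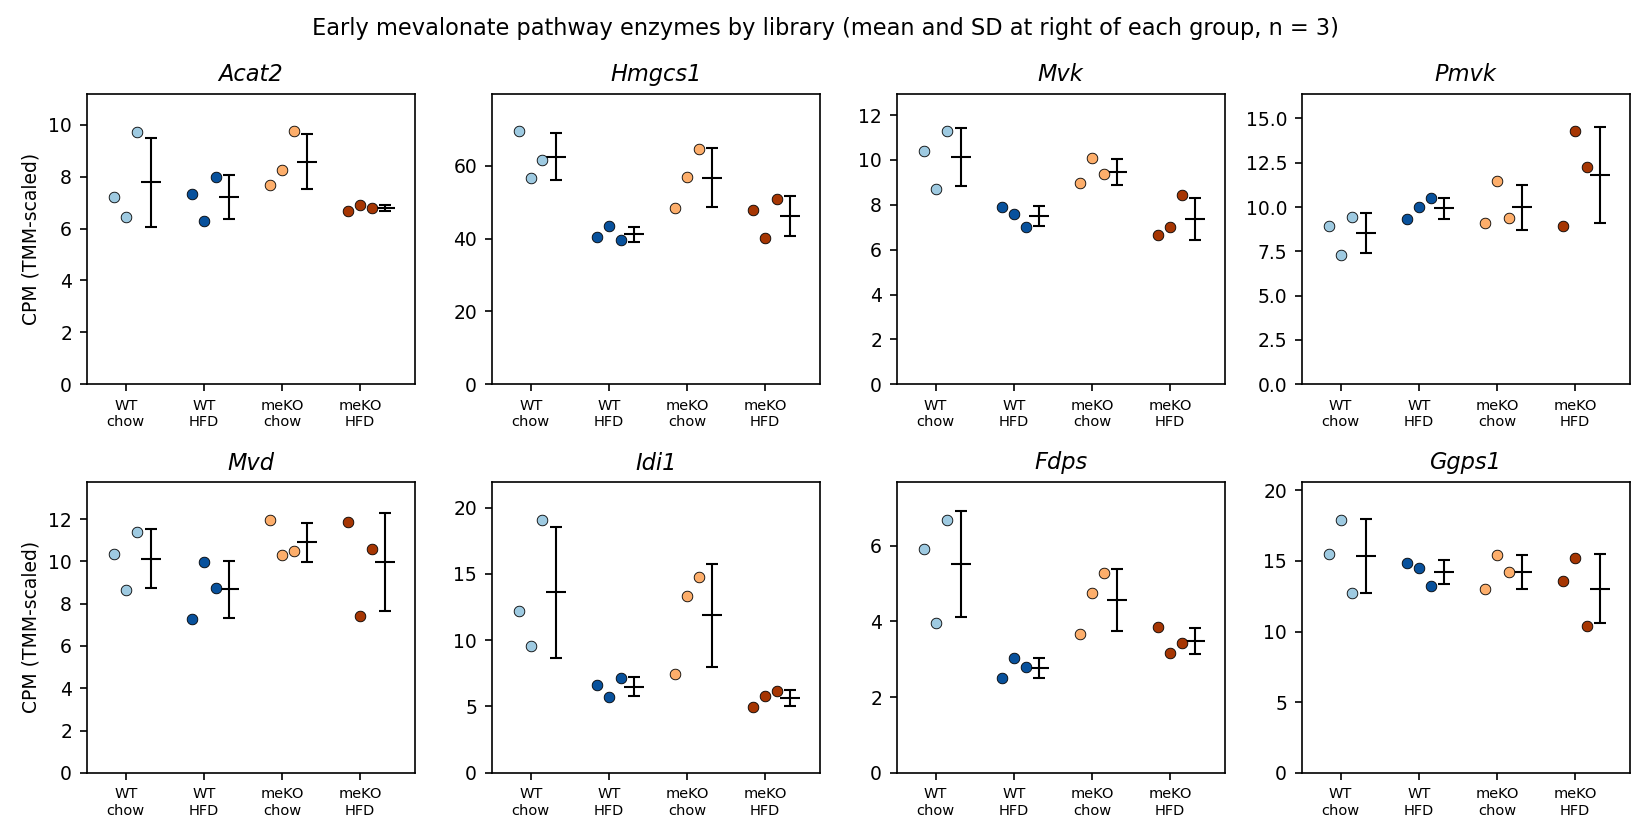
TMM-scaled CPM (vertical axis, starting at 0) of each of the 8 genes in the 12 libraries, by group (horizontal axis); points are libraries and the bar at the right of each group is the mean with its SD (n = 3). Hmgcs1, Mvk, Idi1 and Fdps are lower in all WT HFD libraries than in any WT chow library, while Pmvk and Ggps1 overlap.

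The first comparison was that of diet in WT macrophages. Of the 8 genes, 4 fell on HFD (edgeR quasi-likelihood test, adjusted p under 0.05) and 0 rose: Hmgcs1, Mvk, Idi1 and Fdps. Across all 12339 genes, 11.8% were called lower and 9.5% higher, so that the background of calls in this contrast is high. The median log2 fold change of the 8 was -0.33, against -0.03 over all genes, and 7 of the 8 values were below 0, as were 53% of all genes. For 4 of the 8, the same 4, every HFD library lay below every chow library, which was so for 19.9% of all genes. In bulk RNA, fewer cells of a type and less RNA per cell cannot be told apart. In WT the summed level of 4 B cell markers was 37.0 to 59.4 CPM on chow and 16.3 to 33.6 CPM on HFD. That of 6 mesothelial and fibroblast markers was 41.5 to 68.9 CPM on chow and 71.7 to 112 CPM on HFD. In neither list was a marker at 0, and all were listed. The dendritic cell list (3 of 3 listed) had 6.65 to 9.95 CPM on chow and 4.20 to 5.11 CPM on HFD. For the macrophage, T and NK cell, neutrophil, mast cell, eosinophil and large peritoneal macrophage lists the WT ranges overlapped. In meKO the B cell ranges overlapped (26.2 to 56.2 CPM on chow and 16.7 to 34.9 CPM on HFD), as did the dendritic cell ranges. No share over all genes was taken for such sums, and their part in the diet differences was not tested.

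Hmgcs1, the HMG-CoA synthase, had in replicate order 69.5, 56.6 and 61.6 CPM in WT chow, and 40.4, 43.6 and 39.6 CPM in WT HFD. The groups did not overlap, and the HFD libraries were close to each other. Its level fell by 34.2%, or by 0.60 ± 0.13 (SE) on the log2 scale, with an adjusted p of 0.0143 in edgeR. Idi1, the isomerase, had 12.2, 9.54 and 19.1 CPM in WT chow and 6.63, 5.72 and 7.13 CPM in WT HFD. The chow libraries spread widely, with an SD of 36.2% of their mean against 11.05% on HFD, and the lowest chow library was still above the highest HFD library. Idi1 fell by 52.2%, and its log2 fold change of -1.07 ± 0.26 (SE) had an adjusted p of 0.0207 in edgeR.

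Fdps, the farnesyl diphosphate synthase, had 5.91, 3.95 and 6.68 CPM in WT chow and 2.49, 3.03 and 2.80 CPM in WT HFD. Again the groups did not overlap and the chow libraries spread more, with an SD of 1.41 CPM against 0.270. Fdps fell by 0.99 ± 0.22 on the log2 scale (SE; edgeR adjusted p = 0.0144). Mvk, the mevalonate kinase, had 10.4, 8.72 and 11.3 CPM in WT chow and 7.90, 7.61 and 7.01 CPM in WT HFD. The lowest chow and the highest HFD library were near each other, and the log2 fold change of -0.43 ± 0.14 (SE) passed narrowly (edgeR adjusted p = 0.0463).

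The other 4 members did not pass in WT. Acat2, the thiolase, had 7.21, 6.43 and 9.72 CPM in WT chow and 7.35, 6.30 and 7.97 CPM in WT HFD, with a log2 fold change of -0.11 (95% interval -0.47 to 0.25). Mvd, the decarboxylase, had 10.4, 8.66 and 11.4 CPM in WT chow and 7.28, 9.98 and 8.75 CPM in WT HFD, a difference of -0.23 on the log2 scale (-0.62 to 0.17). Ggps1 had 15.5, 17.9 and 12.7 CPM in WT chow and 14.9, 14.5 and 13.2 CPM in WT HFD (-0.11, interval -0.45 to 0.23). In all 3 genes the groups overlapped. Pmvk, the phosphomevalonate kinase, was the single member with a value above 0: 8.91, 7.28 and 9.45 CPM in WT chow, 9.32, 9.98 and 10.5 CPM in WT HFD, and a log2 fold change of 0.22 (-0.16 to 0.59). These intervals leave room for a fall as large as that of Mvk in Acat2, Mvd and Ggps1 but not in Pmvk.

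The calls in WT rested on which libraries were kept. Without WT chow replicate 1, all 4 missed the threshold, with edgeR adjusted p of 0.0878 for Hmgcs1, 0.0776 for Idi1, 0.0808 for Fdps and 0.167 for Mvk. All 4 were also lost without WT HFD replicate 1 (0.0528, 0.0605, 0.0546 and 0.0867, in the same order) and without WT HFD replicate 3 (0.0798, 0.0829, 0.0761 and 0.173). The number of calls over all genes fell with them, from 2634 to 129, 460 and 96. Idi1 was lost without WT HFD replicate 2 as well (0.0523). Mvk was lost in 10 of 12 such fits. Beside the 3 just named, these left out replicate 2 of WT chow (0.0747), replicate 3 of WT chow (0.0845), replicate 2 of WT HFD (0.0889), any of the meKO chow libraries (0.0591, 0.0602 and 0.0573) or replicate 3 of meKO HFD (0.0539). Mvk also missed with median-of-ratios factors (0.0521) and with the WT libraries fitted alone (0.0725). All values stayed below 0, and the 4 genes passed after the correction for length and GC content.

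In meKO macrophages 0 of the 8 genes passed between HFD and chow (edgeR), where 0.105% of all genes did. At an unadjusted p under 0.05, 3 of the 8 were lower (Hmgcs1, Mvk and Idi1), as were 7.16% of all genes. DESeq2 and voom with library quality weights each called 1 member, Idi1 (adjusted p = 0.0140 and 0.0466, out of 0.0140 to 0.462 for all alternatives). Over all genes these settings called 226 and 398. The median log2 fold change of the 8 was -0.31, against -0.01 over all genes, and 7 of the 8 values were below 0, against 50.8% of all genes. Groups did not overlap in 3 of the 8, Acat2, Mvk and Idi1, all lower on HFD, as in 9.38% of all genes.

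Idi1 had 7.45, 13.4 and 14.8 CPM in meKO chow and 4.97, 5.80 and 6.19 CPM in meKO HFD. The groups did not overlap, although meKO chow replicate 1 lay near the HFD libraries, and the difference was -1.07 ± 0.27 in log2 units (SE; adjusted p = 0.140 in edgeR). Mvk had 8.95, 10.1 and 9.37 CPM in meKO chow and 6.64, 7.02 and 8.42 CPM in meKO HFD (-0.37 ± 0.14; edgeR adjusted p = 0.271). Acat2 had 7.69, 8.28 and 9.75 CPM in meKO chow and 6.69, 6.90 and 6.79 CPM in meKO HFD, and its log2 fold change was -0.33 ± 0.17 (edgeR adjusted p = 0.343). The SD of its HFD libraries was 1.55% of their mean.

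For Hmgcs1 the values were 48.6, 57.0 and 64.8 CPM in meKO chow and 47.9, 40.2 and 50.8 CPM in meKO HFD, a log2 difference of -0.29 ± 0.13 (SE; adjusted p = 0.302 in edgeR). Fdps had 3.67, 4.75 and 5.29 CPM in meKO chow and 3.85, 3.17 and 3.41 CPM in meKO HFD (-0.39 ± 0.21; edgeR adjusted p = 0.373). In both genes the groups overlapped through meKO chow replicate 1, the lowest chow library. Mvd had 11.97, 10.3 and 10.5 CPM in meKO chow and 11.9, 7.40 and 10.6 CPM in meKO HFD, and Ggps1 had 13.01, 15.4 and 14.2 against 13.6, 15.2 and 10.4 CPM. Pmvk had 9.12, 11.5 and 9.37 CPM in meKO chow and 8.91, 14.3 and 12.3 CPM in meKO HFD, and again its log2 fold change was above 0 (0.24, interval -0.13 to 0.61).

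The diet effects in the 2 genotypes share no library, and their difference was tested as the genotype by diet interaction. None of the 8 genes passed (0.0162% of all genes did), 0 had an unadjusted p under 0.05 against 6.13% of all genes, and DESeq2 also called 0. The difference was largest for Fdps, whose diet effect was weaker in meKO by 0.60 ± 0.30 on the log2 scale (SE; 95% interval -0.05 to 1.25; edgeR adjusted p = 0.797), and for Hmgcs1 (0.31, interval -0.09 to 0.71). For Idi1 the difference was -0.01 with an interval of -0.80 to 0.79, so that differences of either sign within that interval could not be seen with these libraries. Averaged over genotypes, the 4 genes that fell in WT fell with HFD, and 0 rose, where 15.3% of all genes were called lower and 14.9% higher. Idi1 changed by -1.07 ± 0.19 (SE; edgeR adjusted p = 0.00460), Fdps by -0.69 ± 0.15 (0.00891), Hmgcs1 by -0.45 ± 0.09 (0.00729) and Mvk by -0.40 ± 0.10 (0.0138). These 4 calls were kept in all 21 alternatives, leaving out any of the 12 libraries included. All 6 HFD libraries lay below all 6 chow libraries for Idi1 and Mvk, 2 of the 8 genes, as for 2.77% of all genes.

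The other 4 members did not pass in the averaged contrast: Acat2 (-0.22, interval -0.48 to 0.03), Mvd (-0.18, -0.45 to 0.10), Ggps1 (-0.12, -0.36 to 0.12) and Pmvk (0.23, -0.04 to 0.49). Pmvk passed without meKO HFD replicate 1 (0.31, edgeR adjusted p = 0.0397, out of 0.0397 to 0.450 for all alternatives). Ggps1 passed with quality weights (-0.25, voom adjusted p = 0.0362, out of 0.0362 to 0.765). Of the 12339 genes, the first of these fits called 4412 and the second 6298, against 3721 in edgeR with all libraries.

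**Figure D2:**
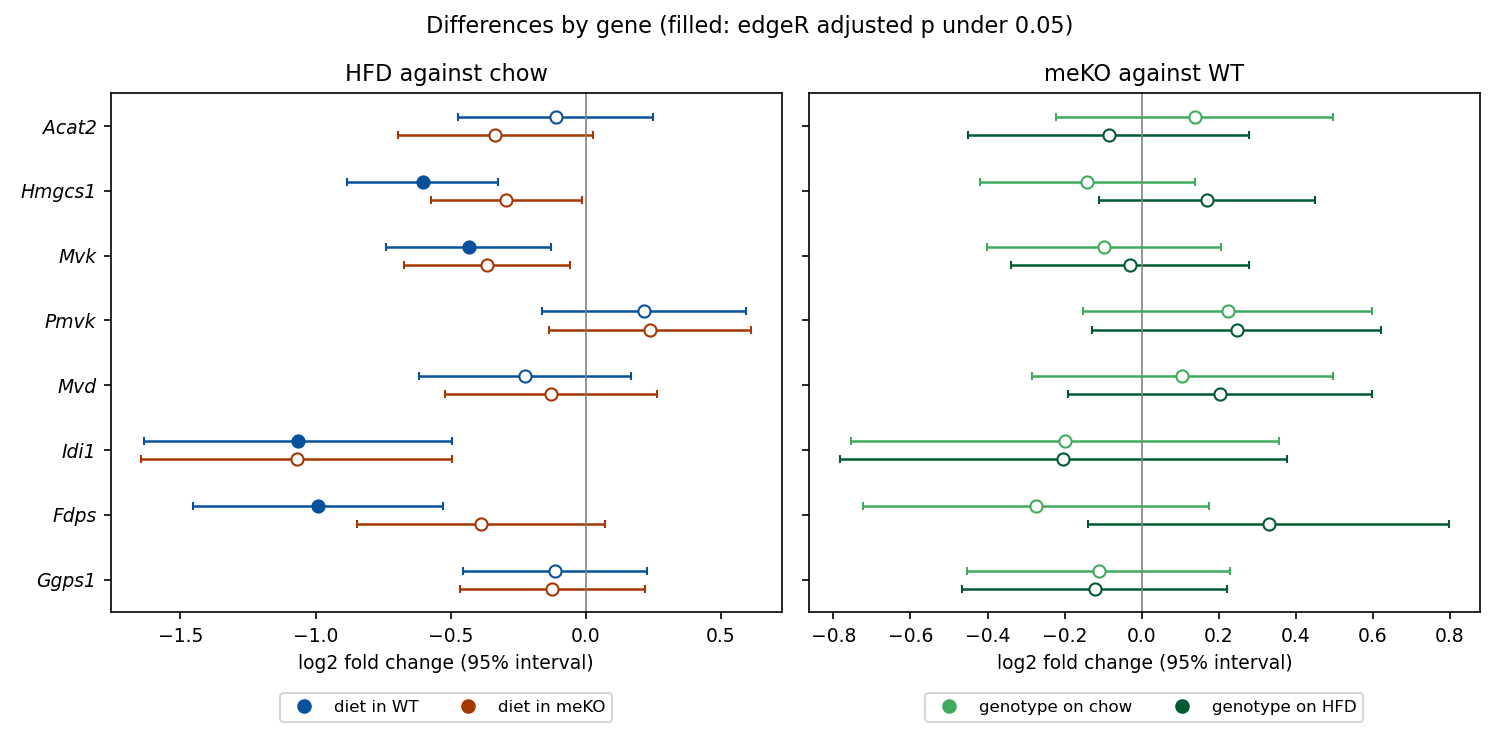
Log2 fold change (horizontal axis) with its 95% interval for each gene, for HFD against chow (left) and meKO against WT (right), from the edgeR model; filled points passed an adjusted p of 0.05. The filled points are Hmgcs1, Mvk, Idi1 and Fdps for diet in WT, and every interval on the right spans 0.

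Genotype was compared as meKO against WT on each diet. On chow, 0 of the 8 genes passed, as against 0.081% of all genes; 0 had an unadjusted p under 0.05, while 19.8% of all genes did, and DESeq2 called 0. The count over all genes in this comparison, 10 in edgeR, was unstable: it was 2543 without WT chow replicate 3, 563 with DESeq2 and 4047 with quality weights. Of the 8 members 0 were called in each of these. The values ran from -0.27 for Fdps (95% interval -0.72 to 0.18) to 0.22 for Pmvk (-0.15 to 0.60), with a median of -0.10 against -0.00 for all genes. On HFD, 0 passed as well (0.081% of all genes), 0 had an unadjusted p under 0.05 (4.56% of all genes), and DESeq2 called 0. There the values ran from -0.20 for Idi1 (-0.78 to 0.38) to 0.33 for Fdps (-0.14 to 0.80). Fdps was the single member whose groups did not overlap on HFD, with all meKO libraries above all WT libraries, against 10.3% of all genes in either direction. Each of these comparisons shares libraries with the diet comparisons. The exon length trend was present here too, with a Spearman correlation across genes of -0.62 between exon length and the genotype difference on chow and -0.56 with the diet difference in WT; its part in either was not tested beyond the correction named above.

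Averaged over diets, 0 of the 8 differed between genotypes in edgeR (0.17% of all genes did), 0 had an unadjusted p under 0.05 against 17.7% of all genes, and DESeq2 called 0. The intervals were narrower: Hmgcs1 was at 0.01 (-0.18 to 0.21), Fdps at 0.03 (-0.30 to 0.35), Acat2 at 0.03 (-0.23 to 0.28) and Mvk at -0.06 (-0.28 to 0.15). For Hmgcs1 a genotype difference as large as its fall on HFD in WT lies outside this interval. Pmvk was at 0.23 (-0.03 to 0.50) and Ggps1 at -0.12 (-0.36 to 0.13). These 2 genes passed with quality weights (voom adjusted p = 0.0450 and 0.0432, with up to 0.626 and 0.860 among the alternatives). That setting called 3835 of the 12339 genes in this contrast, against 21 in edgeR, so the background of calls there is high.

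The members did not vary as a block across the 12 libraries. Fdps and Idi1 followed the rest most closely: Pearson's r of log2 CPM with the mean z-score of the other 7 was 0.92 for Fdps and 0.91 for Idi1, and 0.85 for Mvk and 0.83 for Hmgcs1. Acat2 (0.60) and Mvd (0.31) followed less, and Ggps1 (-0.13) and Pmvk (-0.36) did not. The libraries share their depth and diet groups, so these values are descriptions. With each group's mean removed, r was 0.89 for Fdps and 0.84 for Idi1, but only 0.55 for Mvk, 0.50 for Acat2 and 0.48 for Hmgcs1. It was 0.24 for Pmvk, -0.09 for Mvd and -0.63 for Ggps1. Among pairs, Hmgcs1 and Fdps had the highest r (0.93) and Mvd and Ggps1 the lowest (-0.45). Within groups, Acat2 and Idi1 had the highest r (0.86), although Acat2 did not pass for diet.

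The spread among chow libraries took the same order in several genes. WT chow replicate 3 had the highest Idi1, Fdps and Mvk of all 12 libraries, and WT chow replicate 2 the lowest value of its group in Idi1, Fdps, Mvk, Hmgcs1 and Acat2. In meKO chow, replicate 1 was the lowest in those same 5 genes. Pmvk was also lowest of its group in both of these libraries. Mvd was lowest of its group in WT chow replicate 2 but highest in meKO chow replicate 1. Ggps1 had its highest level of the 12 libraries in WT chow replicate 2, where those 5 genes were lowest in their group, while in meKO chow replicate 1 was its lowest library too. The summed level of the 8 was 139.9, 119 and 142 CPM in the WT chow libraries and 110.4, 131 and 138 CPM in meKO chow. It was 96.2, 101 and 97.0 CPM in WT HFD and 104, 99.98 and 109 CPM in meKO HFD. Every HFD library was below every chow library in this sum, although meKO HFD replicate 3 (108.8 CPM) lay near meKO chow replicate 1 (110.4 CPM). Hmgcs1 weighed most in the sum, with a mean of 51.7 CPM over the 12 libraries, and Ggps1 was next at 14.2 CPM. The sum therefore does not show that each member fell. How often sums of other genes separate in this way was not counted.

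**Figure D3:**
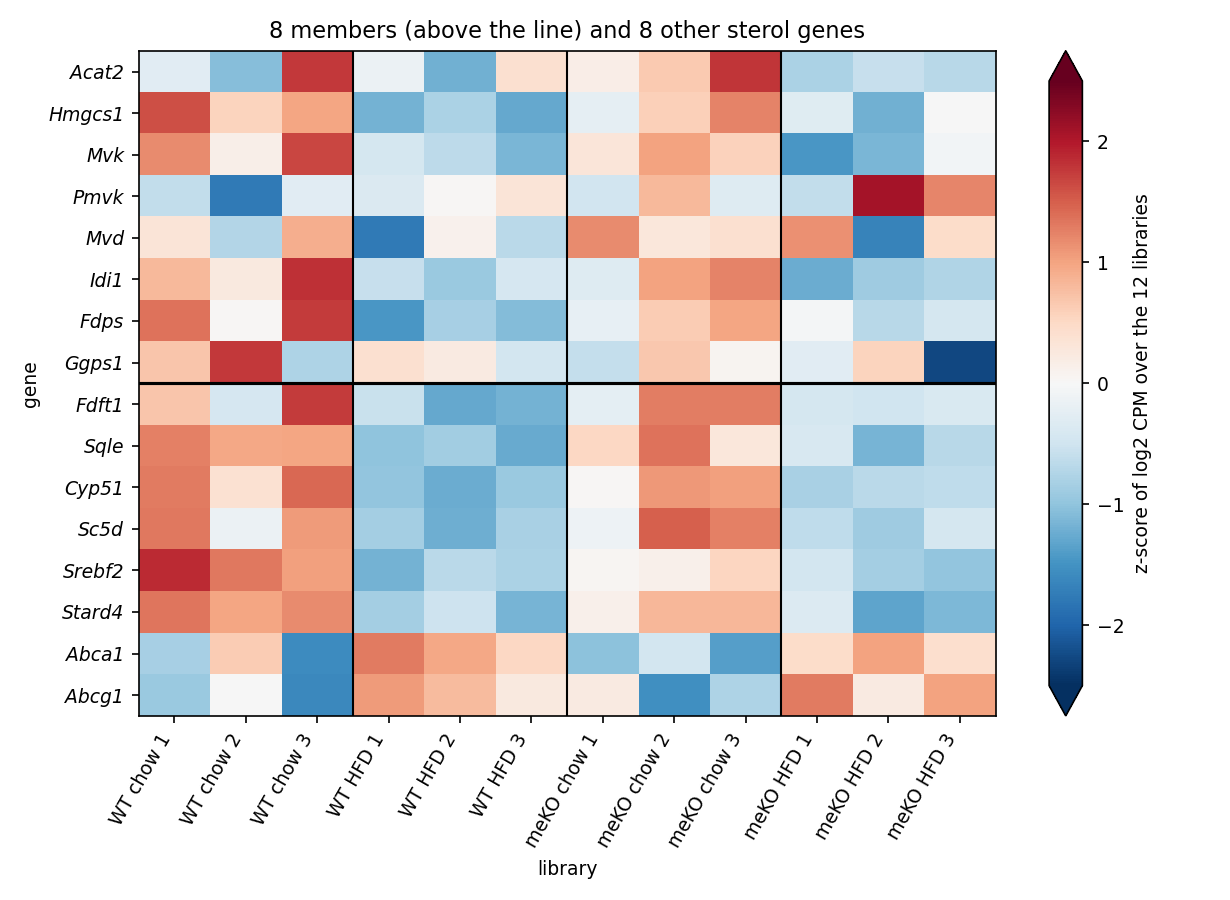
Heat map of z-scores of log2 CPM over the 12 libraries (columns, by group) for the 8 members (above the line) and 8 other sterol genes; red is above and blue below a gene's own mean. Idi1, Fdps and Hmgcs1 are red mainly in chow libraries, as are Fdft1, Cyp51 and Sc5d, while Pmvk is reddest in meKO HFD replicate 2.

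The listed genes with the pattern most like the members' mean z-score, among 9313 others with a mean of at least 5 CPM, were Cyp51 (Pearson's r = 0.97 over the 12 libraries), Sc5d (0.96), Mr1 (0.96), Fdft1 (0.95) and Cat (0.92). Cyp51 and Sc5d act late in cholesterol synthesis, and Fdft1, squalene synthase, uses the product of Fdps. Mr1 encodes a molecule that presents vitamin metabolites to T cells and Cat encodes catalase. The genes with the most opposite pattern were Abcg1 (-0.92), a cholesterol exporter, Efhd2 (-0.92) and Serpinb6b (-0.91). Stard4 (0.86), Insig1 (0.85), Sqle (0.84) and Srebf2 (0.76) also followed the members, Abca1 ran opposite (-0.89), and Prkce was at 0.01. The libraries share their diet groups, so these values too are descriptions. How many genes reach such values was not counted, and group means were not removed for these genes.

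The rest of the pathway gives a setting for these values. Of 12 genes from squalene to cholesterol, 8 fell on HFD in WT and 0 rose, with a median log2 fold change of -0.65. Over all genes 11.8% were called lower and 9.5% higher there. For the meKO diet comparison 0 of them passed (edgeR), where 0.105% of all genes did, and the median was -0.42. At an unadjusted p under 0.05 in that comparison, 8 of the 12 were lower, as were 7.16% of all genes. Averaged over genotypes genes with some of the smallest p-values were Sqle, squalene epoxidase (-1.29 ± 0.14 (SE); edgeR adjusted p = 3.96e-04), and Cyp51 (-1.002 ± 0.12; 9.88e-04). Fdft1, the next enzyme after Fdps, changed by -0.47 ± 0.13 (0.0164). Msmo1 (-0.11), Nsdhl (-0.00), Ebp (-0.04) and Tm7sf2 (-0.11) did not pass, so in the late pathway too a part of the genes was called and a part not.

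Of 8 genes for SREBP control and sterol uptake, 5 fell on HFD in WT, 0 passed in meKO, and 5 fell in the averaged contrast. Over all genes 11.8% fell in WT, 0.105% passed in meKO and 15.3% fell in the averaged contrast. Srebf2, which encodes SREBP-2, fell by 1.49 ± 0.16 in WT on the log2 scale (SE; edgeR adjusted p = 6.78e-04) and was at -0.65 ± 0.16 in meKO (0.140). Averaged over genotypes, Stard4, a sterol carrier, changed by -1.66 ± 0.18 (3.96e-04), Srebf2 by -1.07 ± 0.11 (3.40e-04) and Insig1, which retains SREBP in the endoplasmic reticulum, by -0.73 ± 0.12 (0.00347), all edgeR. Stard4 thus had a value further from 0 than any of the 8 mevalonate enzymes, a difference that was not tested. Of 8 LXR targets, 7 rose in WT, 1 in meKO (Scd1), and 7 in the averaged contrast, with medians of 0.63 and 0.49 in the 2 genotypes. Over all genes 9.5% rose in WT and 14.9% in the averaged contrast, and 0.105% passed in meKO in either direction. Abca1, the cholesterol exporter of the cell surface, changed by 0.82 ± 0.17 when averaged (edgeR adjusted p = 0.00817). Scd1 (1.37 ± 0.11; 9.22e-05), Lpcat3 (0.53 ± 0.07; 0.00114) and Scd2 (1.19 ± 0.16; 0.00134) had the smallest p-values of that list.

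Of 18 genes that use the prenyl diphosphates made by Fdps and Ggps1, 0 passed for diet in WT (edgeR), where 11.8% of all genes were lower and 9.5% higher. At an unadjusted p under 0.05 in WT, 4 of the 18 were lower and 1 was higher. For the meKO mice 0 passed (edgeR), against 0.105% of all genes, and 0 had an unadjusted p under 0.05. In the averaged contrast 1 fell, where 15.3% of all genes were called lower. That gene was Dhdds, the dolichol chain synthase (-0.23 ± 0.08 (SE); edgeR adjusted p = 0.0365). Rabggtb, a subunit of the enzyme that attaches geranylgeranyl groups to Rab proteins, was at 0.28 ± 0.11 (0.0600) and Coq2, of ubiquinone synthesis, at 0.23 ± 0.09 (0.0725). The median of this list was -0.04 in WT and 0.01 in meKO, against -0.03 and -0.01 over all genes. The 8 early enzymes, with medians of -0.33 and -0.31, lay between this list and the late sterol genes.

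**Figure D4:**
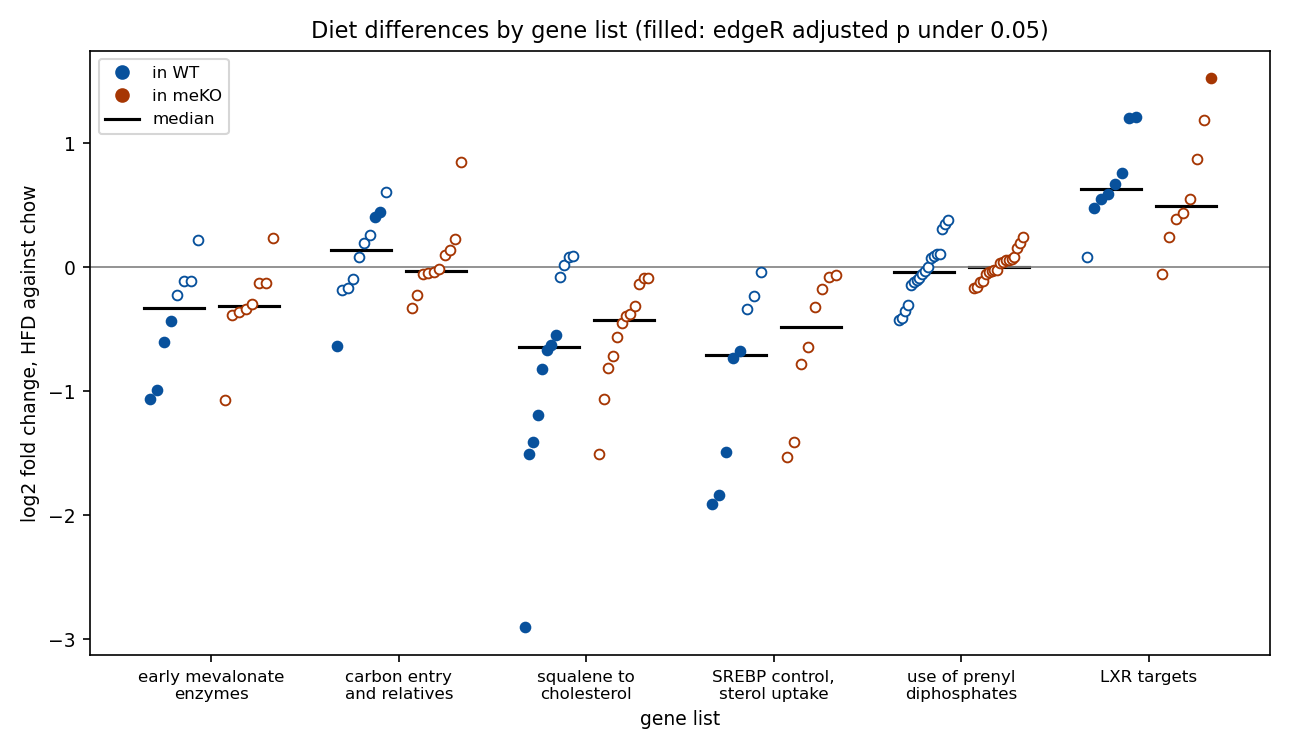
Log2 fold change for HFD against chow (vertical axis) of every gene in 6 lists (horizontal axis), in WT and in meKO; filled points passed an edgeR adjusted p of 0.05 and black lines are list medians. The medians of the 8 early enzymes (-0.33 in WT and -0.31 in meKO) lie between those of the late sterol genes (-0.65 and -0.42) and of the genes that use prenyl diphosphates (-0.04 and 0.01).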

How the data were processed

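RNA of 12 libraries was analysed from a table of whole-number counts per Entrez gene deposited by the authors. The submitters' processing notes name mm10 and DESeq2; the aligner, counter, strand setting and filter are not given in the sources used here. Columns were matched to samples by title; replicate numbers follow sample order and pair nothing. The 186 genes without a symbol held 0.440% of counts and stayed in the fit.

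Counts were tested with edgeR 4.0.16 (R 4.3.3): TMM factors, filterByExpr (which kept all 12339 genes), robust quasi-likelihood F test, 4 group means, all 12 libraries, two-sided, Benjamini-Hochberg over all genes, threshold 0.05. SE is the size of the log2 fold change over the square root of F, and intervals use the moderated degrees of freedom. Log2 CPM used a prior count of 2; exon lengths and GC came from GENCODE M21 (93.5% of genes). The test was checked on simulated counts. Named genes were all members, 5 most alike and 3 most opposite genes, 8 set genes, and the 3 smallest p per list; others were chosen after their values were seen. Near copies were sought with blastn 2.17.0. Alternatives were other scalings, filters, DESeq2 1.42.0, limma 3.58.1 (voom), a length and GC correction, compared groups alone, and each library left out. Members and lists were chosen with earlier results of these data known. Some items that the naming rule covers are not reported here.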

Additional observations from a re-analysis of the deposited data

How the results depend on the processing

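For diet in WT, 4 members were called, between 3 and 4 under the alternatives that kept all libraries and between 0 and 4 when a single library was left out; over all genes the calls ranged from 96 to 6411. The calls over all genes ranged from 1 to 398 for diet in meKO, 2 to 4047 for genotype on chow, 3 to 128 for genotype on HFD, 1 to 295 for the interaction, 1957 to 6298 for diet averaged over genotypes and 8 to 3835 for genotype averaged over diets. For diet in meKO, where 0 members were called, DESeq2 called 1 (226 over all genes) and voom with library quality weights called 1 (398 over all genes). For genotype averaged over diets, where 0 were called, quality weights called 2 members and 3835 of the 12339 genes. The averaged diet contrast gave 4 or 5 members throughout, and the simple genotype contrasts and the interaction 0 in every alternative. No member changed sign in a comparison where it passed in any setting. Of 1208 single values of members under the alternatives, 22 lost the threshold and 6 gained it; the cause was not tested. In fits that left a group with 2 libraries, the spread was pooled over all groups. No paired analysis was possible because the labels give no shared replicate numbers. Levels rest on 77 to 2456 counts per gene and library, which with 3 libraries a group limits the precision.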

Other observations

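Of 10 genes that supply acetyl-CoA or resemble the first enzymes of the pathway, 1 fell and 2 rose on HFD in WT (edgeR). Over all genes 11.8% were called lower and 9.5% higher there. In meKO 0 passed (edgeR), where 0.105% of all genes did, and 0 had an unadjusted p under 0.05. DESeq2 was not counted for this list. The median log2 fold change was 0.14 in WT and -0.03 in meKO. Acly, which makes cytosolic acetyl-CoA from citrate, changed by -0.49 ± 0.11 (SE; edgeR adjusted p = 0.00975) averaged over genotypes. Acaa2 (0.32 ± 0.08; 0.0115) and Hadhb (0.27 ± 0.08; 0.0235), thiolases of mitochondrial fatty acid oxidation, rose. The mitochondrial thiolase Acat1 was at 0.20 ± 0.10 (0.159) and Acat3, the near copy of Acat2, at -0.11 ± 0.18 (0.657).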
